A study of Mus musculus with 6 samples.

Results

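Caveolae are flask-shaped pits of the plasma membrane that are abundant in adipocytes, endothelium, muscle and fibroblasts. Caveolins are inserted into the inner leaflet of the membrane, cavins form a coat around them from the cytosol, EHD2 is an ATPase ring at the neck, and PACSINs are membrane-bending F-BAR proteins at the neck. Caveolae are known to flatten when the membrane is stretched and to be tied to actin filaments, and in adipocytes they hold a large part of the cell surface. The caveola coat and neck genes described here are Cav1, Cav2, Cav3, Cavin1, Cavin2, Cavin3, Ehd2, Pacsin2 and Pacsin3. They were chosen by name, and all 9 were found among the 46603 gene identifiers of each library.

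Their RNA was measured by sequencing in mouse embryonic fibroblasts: the KO group had 3 libraries of cells with both copies of the beta-actin gene Actb disrupted, and the WT group had 3 of wild-type cells. Both groups carry the strain label BALB/c and an age label of 10.5 day old embryos, and both had been kept for 6 days in growth medium to which insulin, dexamethasone, IBMX (a phosphodiesterase inhibitor) and ascorbic acid had been added, a mixture used to drive fibroblasts toward the adipocyte fate. The labels do not say whether the libraries of a group came from separate cultures, embryos or clones, so the p-values below measure the spread between these libraries, which may be technical. Libraries from before the medium was added were not analysed here, so differences that preceded it and differences that arose in it cannot be told apart.

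The libraries held 26955708 to 38619711 counts. Actb, the targeted gene, fell from 1875 ± 47.9 CPM in WT (CPM, each count scaled to the TMM library size) to 39.9 ± 25.9 in KO (SD, n = 3). KO replicate 1 stood apart: its Actb was 10.4 CPM against 58.9 and 50.3 in KO replicates 2 and 3, and its counts differed from theirs by a chi-square of 173 and 171 per degree of freedom over genes, against 26.3 between the other KO libraries and 17.2 to 31.9 within WT. Fold changes and ratios that it moves are therefore given with and without it, and shares and marker sums by library. The 10 fibroblast markers, of which 8 were called higher in KO, summed to 2990 to 3775 CPM in WT and 10578, 7660 and 8341 CPM in KO replicates 1, 2 and 3, but Thy1 had 0, 1 and 0 counts and Col1a2 13, 6 and 9 counts in WT. The 9 adipocyte markers summed to 13.2 to 22.6 CPM in WT and 265, 163 and 163 CPM in KO. Most of the KO sum was Lpl, lipoprotein lipase (5.70 log2, edgeR adjusted p = 0.000124). It had 146, 144 and 137 CPM in KO against 2.99, 1.19 and 4.05 in WT. In KO replicate 1 Fabp4, a fatty acid carrier, added 109 CPM, against 8.60 and 16.2 in the other KO libraries. The log2 fold change of Fabp4 was 2.56 (edgeR adjusted p = 0.0686), and 0.72 (adjusted p = 0.119) without KO replicate 1. Slc2a4, the insulin-responsive glucose transporter, had 6.95 to 9.995 CPM in WT and 8.54 to 9.58 in KO, and Cidec had 45 counts in KO replicate 3 and 0 to 3 elsewhere, while Adipoq had 0 to 1 counts, Plin1 1 to 3 and Lep 0 in each library. The 8 smooth muscle markers, of which 7 were called higher, summed to 104 to 133 CPM in WT and 13146, 7360 and 4743 CPM in KO. The actin isoform Acta2 made up most of the KO sums, with 11481, 6379 and 4120 CPM in KO and 48.3 to 80.7 in WT. Actg2, Tagln, Cnn1, Lmod1, Smtn and Des were called higher as well. Myh11 was not called, with 0.691 to 0.880 CPM in WT and 0.676 to 1.01 in KO (0.10 log2, edgeR adjusted p = 0.825). The 7 epithelial markers summed to 5.15 to 10.6 CPM in WT and 50.6, 30.3 and 49.4 in KO, through Krt18 and Krt19, which were called higher, whereas Epcam fell from 34, 48 and 45 counts to 0 in each KO library and Cdh1, Krt8, Cldn3 and Cldn7 had too few counts to test. For 10 skeletal muscle markers the sums were 13.3 to 21.7 CPM in WT and 48.3, 31.6 and 30.5 in KO. Nearly all of this was Des, which is in the smooth muscle list as well, with 12.5 to 20.5 CPM in WT and 46.9, 30.3 and 29.5 in KO. The other skeletal muscle markers had at most 0.864 CPM in any library. For 8 macrophage markers the sums were 19.45 to 37.7 CPM in WT and 23.4, 21.5 and 31.0 in KO. The marker genes named here, other than those at or near 0, were picked after their values were seen. The part of these shifts in the results below was not tested. In bulk RNA, fewer cells of a type and less RNA per cell cannot be told apart.

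After 6 days in the medium, 4 genes of the caveola were higher in KO cells and 0 were lower. The higher genes were both ubiquitous caveolins, Cav1 (3.46-fold) and Cav2 (3.09-fold), and the cavins Cavin2 (5.26-fold) and Cavin3 (2.40-fold). The call of Cavin3 was lost when any library other than KO replicate 1 was left out, and with library totals or limma-voom. Cavin1, the cavin that caveola formation depends on, and the neck genes Ehd2, Pacsin2 and Pacsin3 were not called, and the muscle gene Cav3 was not detected. The test covered 8 of the 9 members and called 4 higher, 0 lower and 4 neither; 0 members were lower at an unadjusted p below 0.05, and DESeq2 and limma-voom called 0 lower as well. Among all 15009 tested genes 13.8% were called higher, 14.5% lower and 28.3% in either direction (edgeR quasi-likelihood F test, Benjamini-Hochberg adjusted p below 0.05). In numbers, 2074 were higher and 2181 lower, which became 1351 and 3347 when libraries were scaled by their totals alone. The median log2 fold change, KO over WT, was 0.77 over the 8 tested members and 0.01 over all tested genes. KO and WT values did not overlap for 4 of the 8, a share close to the 49.6% of all tested genes. The 4 were Cav1, Cav2, Cavin2 and Pacsin2.

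**Figure D1:**
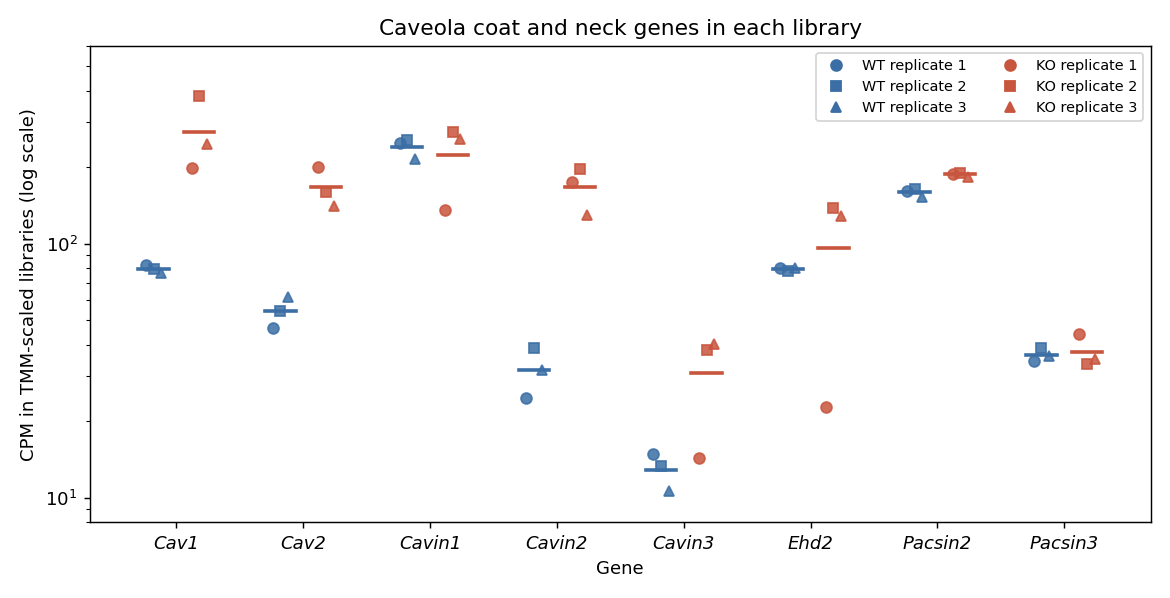
Level of the 8 detected caveola genes in each library, in CPM on a log axis, with WT in blue and KO in red. Points are libraries and bars are group means (n = 3). Cav1, Cav2 and Cavin2 lie higher in each KO library than in each WT library. KO replicate 1 (circles) lies below both other KO libraries for Cav1, Cavin1, Cavin3 and Ehd2.

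Caveolins form the membrane-embedded framework of the pit. Cav1 (ENSMUSG00000007655, chromosome 6, 17306335 to 17341452, plus strand, GRCm38) encodes caveolin-1, which is needed for caveolae outside striated muscle. Its level was 82.3, 79.1 and 76.8 CPM in WT replicates 1, 2 and 3 and 198, 381 and 246 CPM in KO replicates 1, 2 and 3. The lowest KO library was more than the highest WT library, and the KO libraries were spread far wider than the WT libraries (79.4 ± 2.76 CPM in WT and 275 ± 95.1 in KO, SD, n = 3). The log2 fold change was 1.79 (SE 0.28, edgeR adjusted p = 0.00156). Cav2 (ENSMUSG00000000058, chromosome 6, 17281185 to 17289115, plus strand), a partner that assembles with caveolin-1, had 46.3, 54.4 and 61.5 CPM in WT and 200.2, 159 and 141 CPM in KO. Here KO replicate 1 was the highest KO library, whereas for Cav1 it was the lowest. The log2 fold change of Cav2 was 1.63 (SE 0.19, edgeR adjusted p = 0.000634). Cav3 (ENSMUSG00000062694, chromosome 6, 112459505 to 112472872), the caveolin of striated muscle, had 0 counts in all 6 libraries, where the limit that a count of 0 allows, taken as 3 counts, was 0.0816 to 0.113 CPM by library and covers counting error only. Of the skeletal muscle markers, Myf5 had 0 counts in all 6 libraries as well, and Myod1 had 0 in WT and 3, 1 and 0 in KO.

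The promoters of both caveolins are shown because Cav1 and Cav2 are neighbours that both rose, and that of Cavin2 because it had the highest fitted fold change of the members. Each is the 250 bases before a RefSeq start, the first listed for Cav1, on the gene's strand, 5′ to 3′, from the RefSeq table of build GRCm38.p6. Capitals mark matches, on either strand, to any of 6 searched motifs: the CArG box of SRF, GGAATG (TEAD), GGGCGG (GC box), TATAAA, TCACNCCAC (sterol response element) and CACGTG (E box). The Cav1 window is chr6:17306085-17306334, that of Cav2 chr6:17280935-17281184 and that of Cavin2 chr1:51288876-51289125, all on the plus strand.
Cav1: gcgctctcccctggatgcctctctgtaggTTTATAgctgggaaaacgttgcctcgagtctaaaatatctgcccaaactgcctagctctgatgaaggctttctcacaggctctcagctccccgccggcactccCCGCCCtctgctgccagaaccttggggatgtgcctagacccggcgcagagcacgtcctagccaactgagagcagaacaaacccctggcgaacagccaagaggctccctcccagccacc
Cav2: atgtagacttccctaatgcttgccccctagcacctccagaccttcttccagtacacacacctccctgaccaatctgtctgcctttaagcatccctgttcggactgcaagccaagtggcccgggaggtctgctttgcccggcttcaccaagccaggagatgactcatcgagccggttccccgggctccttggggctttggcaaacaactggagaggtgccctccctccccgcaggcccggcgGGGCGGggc
Cavin2: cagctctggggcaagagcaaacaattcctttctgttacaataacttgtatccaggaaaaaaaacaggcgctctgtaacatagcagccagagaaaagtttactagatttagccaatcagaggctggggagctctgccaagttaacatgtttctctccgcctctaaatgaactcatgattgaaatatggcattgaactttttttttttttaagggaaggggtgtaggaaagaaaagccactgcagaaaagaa
The Cav1 window held 1 GC box match, 118 bases before the start, and 1 match to TATAAA, 221 bases before it, both on the other strand. The Cav2 window held 1 GC box match, 9 bases before the start, on the gene's strand. A second RefSeq start of Cav1, whose window has 60.8% G and C and holds none of the 6 motifs, is not shown. The Cavin2 window held none of the 6 motifs. G and C made up 59.6% of the Cav1 window, 62.0% of that of Cav2 and 40.4% of that of Cavin2, against a median of 52.4% over all promoters. No match overlapped another. Among 32817 promoters of the same length, GGGCGG was found in 32.7%, TATAAA in 12.4%, GGAATG in 12.6%, CACGTG in 6.02%, the CArG box in 1.47% and TCACNCCAC in 1.05%. A match describes these letters only, and no match says nothing about a factor.

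Cavins coat the pit from the cytosol, and their members did not move alike. Cavin1 (ENSMUSG00000004044, chromosome 11, 100956733 to 100970887, minus strand) had 248, 255 and 214 CPM in WT and 135, 274 and 258 CPM in KO. KO replicates 2 and 3 lay just above the WT libraries and KO replicate 1 below them. Its log2 fold change was -0.10 (SE 0.34, edgeR adjusted p = 0.784), and 0.15 (adjusted p = 0.263) without KO replicate 1. Cavin2 (ENSMUSG00000045954, chromosome 1, 51289126 to 51302960, plus strand), which is known to shape caveolae in some tissues, had 24.6, 38.9 and 31.9 CPM in WT and 175, 197 and 130.1 CPM in KO. The groups lay far apart, and KO replicate 1 fell between the other KO libraries. It rose by 2.40 log2 (SE 0.26, edgeR adjusted p = 0.000376), the highest fitted value of the 8. Cavin3 (ENSMUSG00000037060, chromosome 7, 105480083 to 105482300, minus strand), a cavin known to bind protein kinase C delta, had 14.8, 13.3 and 10.6 CPM in WT and 14.3, 38.3 and 40.1 CPM in KO. KO replicate 1 lay within the WT range, and both other KO libraries lay above it.

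The log2 fold change of Cavin3 was 1.26 (SE 0.50, edgeR adjusted p = 0.0388). Leaving out KO replicate 1 gave 1.60 (adjusted p = 0.000127). Leaving out any other library ended the call: the adjusted p was 0.0951, 0.115 or 0.134 when WT replicate 1, 2 or 3 was dropped, and 0.0856 or 0.0996 when KO replicate 2 or 3 was. It also missed it with library totals (0.0687) and limma-voom (0.0732). Exons of Cavin3 share 22.5% of their length with Gm45667, a gene on the opposite strand that is in the annotation but not in the count table, and the labels do not say whether the counting used strand. Cav1, Cav2 and Cavin2 share no exon bases with another gene.

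At the neck of the caveola, Ehd2 (ENSMUSG00000074364, chromosome 7, 15946958 to 15967567, minus strand), which holds caveolae at the surface, had 79.9, 78.3 and 80.3 CPM in WT and 22.7, 139 and 128 CPM in KO. The WT libraries were nearly equal. KO replicate 1 was below all of them, and both other KO libraries were above. Its log2 fold change was 0.28 (SE 0.85, edgeR adjusted p = 0.731), and 0.75 (adjusted p = 0.000271) without KO replicate 1. Pacsin2 (ENSMUSG00000016664, chromosome 15, 83375607 to 83464606, minus strand), the widely expressed PACSIN, had 161, 164 and 153 CPM in WT and 188, 190.2 and 183 CPM in KO. The groups did not overlap, and the difference was small, 0.23 log2 (SE 0.03, edgeR adjusted p = 0.115). DESeq2 called it (0.24 log2, adjusted p = 0.0358). The edgeR fit gave 0.18 log2 (adjusted p = 0.218) with upper-quartile scaling and 0.03 (adjusted p = 0.829) with library totals. Pacsin3 (ENSMUSG00000027257, chromosome 2, 91255954 to 91264679, plus strand), the PACSIN best known from muscle, had 34.4, 38.8 and 36.1 CPM in WT and 43.9, 33.6 and 35.1 CPM in KO. Its groups overlapped, with a log2 fold change of 0.04 (SE 0.13, edgeR adjusted p = 0.849), and the sign turned with upper-quartile scaling (-0.02), with library totals (-0.17, where the median of all genes was -0.19) and without KO replicate 1 (-0.09).

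**Figure D2:**
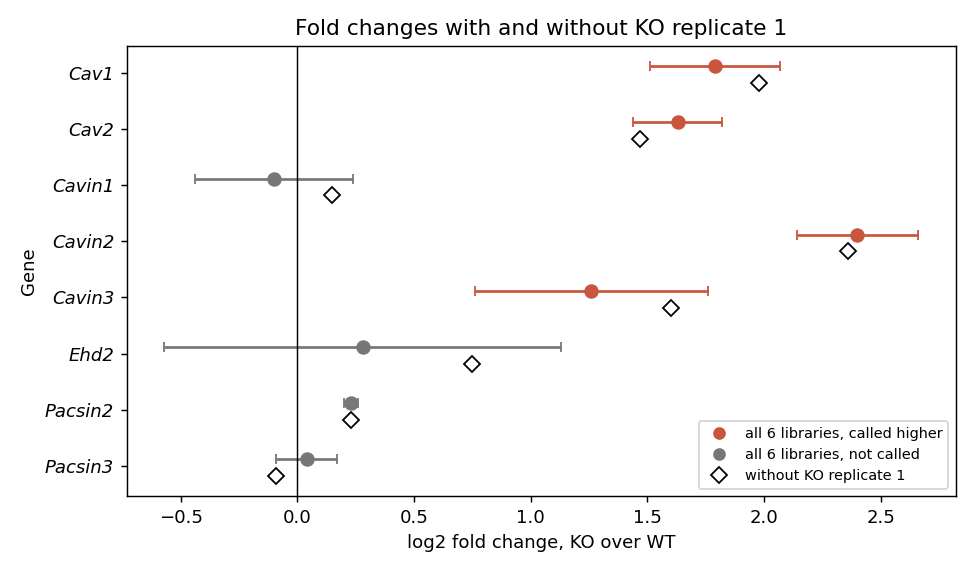
Log2 fold change, KO over WT, of the 8 tested members. Filled points are the fit of all 6 libraries, with the SE of the difference in mean log2 CPM, in red where called and grey where not; open diamonds are the fit without KO replicate 1. Ehd2 moves from 0.28 to 0.75 and Cavin3 from 1.26 to 1.60, whereas Cavin2 moves from 2.40 to 2.36.

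The 3 KO libraries did not agree on all members. Cav1, Cavin1, Cavin3 and Ehd2 were lowest in KO replicate 1, Cav2 and Pacsin3 were highest in it, and Cavin2 and Pacsin2 lay between the other KO libraries. Flna, which encodes the actin crosslinker filamin A that binds caveolin-1, showed the same split, with 821, 2204 and 1743 CPM in KO replicates 1, 2 and 3 against 725 to 791 CPM in WT; it was picked out after its values were seen. The part of Actb level or of other features of KO replicate 1 in these values was not tested. Without KO replicate 1 the members called higher numbered 5, namely Cav1, Cav2, Cavin2, Cavin3 and Ehd2, and 0 were called lower. In that fit 3075 of 15453 tested genes (19.9%) were called higher and 3462 (22.4%) lower, so calls rose over all genes as well.

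Levels between genes can be compared per length, as reads per kilobase of merged exons scaled to the TMM library size (RPKM). In WT, Cavin1 had the highest level, 66.7 ± 6.10 RPKM, followed by Pacsin2 (32.4 ± 1.11) and Cav1 (23.1 ± 0.801). These did not overlap. Cav2 (16.2 ± 2.28) and Ehd2 (15.5 ± 0.208) came next and did not differ beyond their spread. Cavin2 (10.4 ± 2.34), Pacsin3 (8.42 ± 0.510) and Cavin3 (7.76 ± 1.27) were the lowest detected members by this length, each overlapping its neighbour in the order. The order depends on the length used. Pacsin3 has 4327 bases of merged exons, whereas its longest transcript has 1993, a length that would give it a higher level. The order by longest transcript was not computed. In KO, Cav1 was at 79.9 ± 27.6 RPKM, Cavin1 at 62.0 ± 21.2, Cavin2 at 54.8 ± 11.2 and Cav2 at 50.05 ± 9.08, each overlapping the next. Pacsin2 followed at 38.1 ± 0.795 RPKM, below all libraries of Cav2. It overlapped Cavin1 only through KO replicate 1, where Cavin1 was at 37.7 RPKM against 76.4 and 72.0 in KO replicates 2 and 3. Then came Ehd2 (18.9 ± 12.5), Cavin3 (18.6 ± 8.66) and Pacsin3 (8.67 ± 1.29), where these 3 overlapped from one to the next. By mean level Pacsin2 was rank 2 in WT and rank 5 in KO.

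Ratios between members within a library do not depend on how libraries are scaled. The ratio of Cav1 to Cavin1, per kilobase, was 0.345, 0.323 and 0.373 in WT and 1.52, 1.45 and 0.992 in KO, a difference of 1.91 on the log2 scale. The groups did not overlap (exact permutation test, two-sided, p = 0.10, the smallest that 3 against 3 allows, and 0.12 adjusted over 6 ratios). Cavin2 to Cavin1 was 0.117, 0.179 and 0.175 in WT and 1.52, 0.846 and 0.591 in KO, and Cavin3 to Cavin1 was 0.129, 0.112 and 0.107 against 0.228, 0.301 and 0.335. The KO minus WT differences were 2.57 and 1.30 log2, with the same exact p of 0.10 and no overlap. Without KO replicate 1 the 3 differences, in the order given, were 1.79, 2.20 and 1.46. KO replicate 1, whose Cavin3 level was within the WT range, was above every WT library in the ratio of Cavin3 to Cavin1. Its Cavin1, the lower part of that ratio, had 135 CPM against 214 to 255 CPM in WT.

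The ratios of Ehd2 and Pacsin2 to Cav1 were also computed. Each of the 6 ratios holds Cav1 or Cavin1, so they are not independent results. Ehd2 to Cav1 was 0.653, 0.666 and 0.704 in WT and 0.0771, 0.245 and 0.351 in KO, a difference of -1.84 log2, which became -1.20 without KO replicate 1. Pacsin2 to Cav1 was 1.37, 1.45 and 1.40 against 0.668, 0.350 and 0.521, a difference of -1.50, and of -1.72 without KO replicate 1. Neither ratio overlapped between groups (exact permutation p = 0.10 each, 0.12 adjusted over the 6). Cav1 to Cav2 was the exception, at 1.72, 1.41 and 1.21 in WT and 0.957, 2.32 and 1.69 in KO. Here the groups overlapped, the difference was 0.12 log2 (exact permutation p = 0.90; 0.47 log2 without KO replicate 1), and the sign turned without KO replicate 2 (-0.17) or without WT replicate 3.

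Expressed as shares of the summed RPKM of the 3 cavins, Cavin1 made up 78.6% ± 1.51 in WT and 45.0% ± 7.88 in KO (SD, n = 3). Cavin2 made up 12.3% ± 2.53 and 41.8% ± 12.5, and Cavin3 9.12% ± 1.06 and 13.3% ± 4.598. In KO replicate 1 Cavin2 was the most abundant cavin, at 55.3% against 36.4% for Cavin1. In KO replicates 2 and 3 Cavin1 led, at 46.6% and 51.9%, with Cavin2 at 39.4% and 30.7%. Cav1 made up 58.8% ± 4.26 of the caveolins in WT and 60.5% ± 10.7 in KO, where KO replicate 1 had 48.9% and the others 69.8% and 62.8%.

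**Figure D3:**
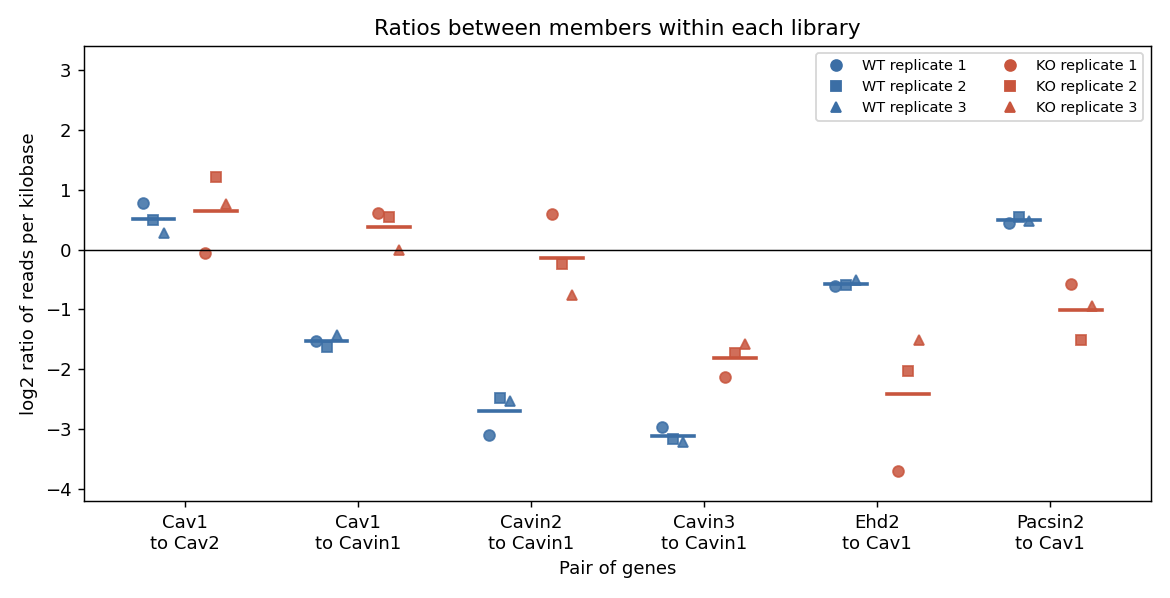
Log2 ratio of reads per kilobase between 2 members within each library, WT in blue and KO in red, with points for libraries and bars for group means (n = 3). The groups do not overlap in 5 of the 6 ratios, and Cav1 to Cav2 is the ratio where they do. Of all tested genes taken singly, 49.6% do not overlap, and no share was computed for ratios of other gene pairs. Each ratio holds Cav1 or Cavin1, so the 6 are not independent.

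Cav2 and Cav1 lie 17219 bases apart on the plus strand of chromosome 6. All genes within 500 kb of the pair were examined, a window chosen after the members' values had been seen. It held 26 genes of the count table, of which 7 could be tested, and 5 of the 7 were called higher and 1 lower. Cav1 and Cav2 are among the 5, and the window was drawn around them; of the 5 other tested genes 3 were called higher, and 13.8% of all tested genes were. The 3 were Met, the receptor of hepatocyte growth factor (1.22 log2, SE 0.30, adjusted p = 0.00871), Capza2, an actin filament capping subunit (0.77 log2, SE 0.09, adjusted p = 0.00292), and Tes, the focal adhesion protein testin (0.58 log2, SE 0.18, adjusted p = 0.0332). St7 was lower (log2 fold change -0.57, SE 0.16, adjusted p = 0.0396). Met had 36.0, 47.0 and 53.6 CPM in WT and 145, 86.5 and 87.6 in KO. Every KO library was above every WT library, and the highest was KO replicate 1, as for Cav2. Tes lost its call without WT replicate 1, 2 or 3 (adjusted p = 0.094, 0.0949 and 0.118) or KO replicate 3 (0.0523) and with library totals (0.0775), and St7 without any one library except KO replicate 1 (adjusted p = 0.052 to 0.123).

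**Figure D4:**
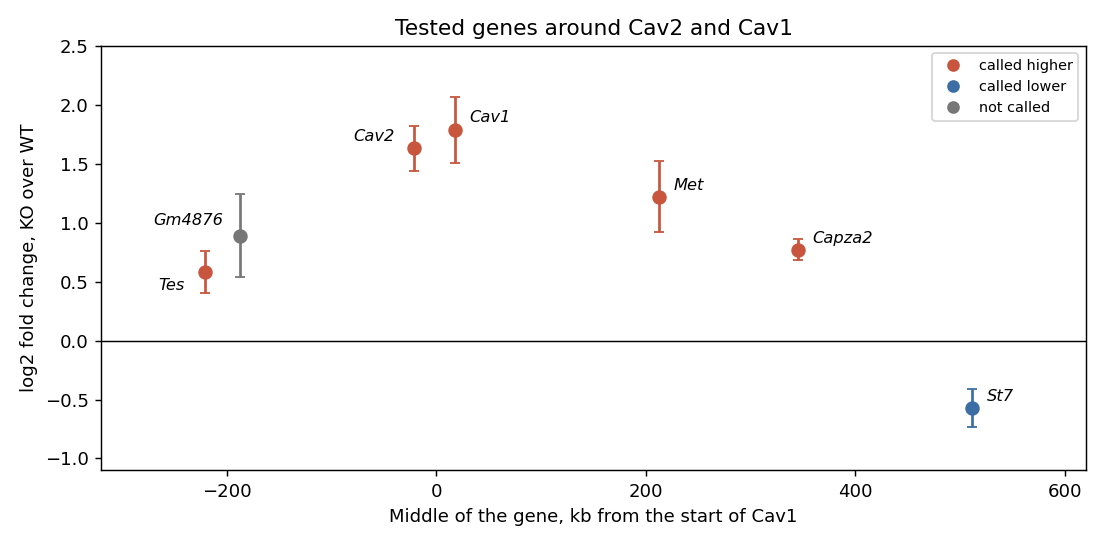
Log2 fold change, KO over WT, of the 7 tested genes within 500 kb of Cav2 and Cav1, placed by the distance of the middle of the gene from the start of Cav1 in kb. Bars are the SE of the difference in mean log2 CPM. Cav1 (1.79) and Cav2 (1.63) have the largest values of the 7, and St7 is the one gene called lower.

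The 5 genes whose pattern over the 6 libraries was closest to that of Cav1 were Tspan18, H1f0, Mex3b, Bok and Atp1b1. The measure was the root mean square distance between centred log2 CPM values, 0.144 for Tspan18 and 0.191 for Atp1b1, among 10046 candidate genes. Tspan18, a tetraspanin, had 5.37, 5.53 and 6.38 CPM in WT and 15.7, 23.9 and 17.2 in KO. As for Cav1, KO replicate 2 was the highest and KO replicate 1 the lowest KO library. The choice by distance from Cav1 over these same libraries favours such a likeness, so it is no separate result.

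Other genes of the caveola pathway moved in both directions. In a list of 17 caveola-associated genes, all tested, 5 were called higher, 3 lower and 9 neither. The median log2 fold change was -0.17. Called genes made up 47.1%, against 28.3% of all tested genes (13.8% higher and 14.5% lower). Ror1, a receptor kinase family member known from human lung cancer cells to support caveolin-1 and cavin-1, fell by 3.51 log2 (SE 0.27, adjusted p = 0.000305), from 6.60, 10.6 and 10.4 CPM in WT to 1.01, 0.712 and 0.707 in KO. All 3 KO libraries were far below WT. Ehd4, a relative of Ehd2, fell by 0.98 log2 (adjusted p = 0.00955), and Pacsin1, the neuronal PACSIN, fell by 2.42 (adjusted p = 0.0066) from 68 to 13 counts over the 3 libraries. Trip10, an F-BAR protein, rose by 0.62 log2 (adjusted p = 0.0232). Flna rose by 1.07 log2 (SE 0.43, adjusted p = 0.0429), and by 1.39 (adjusted p = 0.000141) without KO replicate 1. Cavin4, the cavin of muscle, rose by 1.05 log2 (adjusted p = 0.0369) but had only 14 to 19 counts in WT and 33 to 37 in KO; Flna and Cavin4 were named after their values were seen.

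The higher calls in that list were fragile. They numbered 0, 1 and 1 without WT replicates 1, 2 and 3, 1 without KO replicate 2 or 3, and 0 with library totals, where the median of all genes shifted to -0.19 log2. The lower genes numbered 5 without KO replicate 1 or 2. Trip10 missed the test without WT replicates 1, 2 or 3 (adjusted p = 0.0868, 0.101 and 0.0578). Flna did so without WT replicates 1, 2 or 3 (0.12, 0.14 and 0.127) or KO replicates 2 or 3 (0.0972 and 0.0933), and Cavin4 without WT replicates 1, 2 or 3 (0.0876, 0.16 and 0.0997) or KO replicates 2 or 3 (0.0669 and 0.0861).

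In a list of 18 genes of the kinase and actin link of caveolae, 3 rose, 2 fell and 13 were not called, with a median of 0.05 log2. The called share of this list, 27.8%, is near the 28.3% of all tested genes. Src, which phosphorylates caveolin-1, fell by 0.86 log2 (SE 0.16, adjusted p = 0.00512), from 91.7, 110.1 and 102 CPM to 45.4, 59.8 and 62.1. Ptpn14, a tyrosine phosphatase, fell by 0.68 (adjusted p = 0.00743). Fyn, another kinase of the Src family, rose by 0.43 (adjusted p = 0.0322). The higher calls numbered 0 without WT replicates 1, 2 or 3 or KO replicate 2 and 1 without KO replicate 3, and the lower ones 4 without KO replicate 1. Fyn missed the test without WT replicates 1, 2 or 3 (0.117, 0.118 and 0.0521) or KO replicate 2 (0.0781).

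Of 15 proteins reported in adipocyte caveolae 13 were tested, with 4 called higher, 1 lower and 8 neither. The median was 0.65 log2, and 38.5% were called, against 28.3% of all tested genes. Aoc3, an amine oxidase of the adipocyte surface, rose by 3.67 log2 (SE 0.60, adjusted p = 0.00215), from 1.26, 1.57 and 3.55 CPM to 17.2, 43.5 and 20.1. Gprc5b, an orphan receptor, rose by 0.75 (adjusted p = 0.0146). Lipe, hormone-sensitive lipase, fell by 1.94 (SE 0.05, adjusted p = 0.000137), from 27.4 ± 1.32 to 7.14 ± 0.326 CPM. The higher genes numbered 1 without each WT replicate in turn and 6 without KO replicate 1 or 2, and the lower ones 2 without KO replicate 1. Gprc5b missed the test without WT replicates 1, 2 or 3 (0.0569, 0.0693 and 0.0576).

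Of 15 proteins reported in the caveolae of muscle and endothelium 8 were tested, with 3 called higher, 0 lower and 5 neither. The median was 0.28 log2, and 37.5% were called, against 28.3% of all tested genes (13.8% higher). The 3 called were the calcium pump Atp2b4 (1.45 log2, SE 0.26, adjusted p = 0.00258), the membrane repair gene Dysf (1.79, SE 0.50, adjusted p = 0.0109) and the prostacyclin synthase Ptgis (0.57, SE 0.14, adjusted p = 0.0244). Dysf was lowest of the KO libraries in KO replicate 1, with 16.6 CPM against 47.2 and 44.5. The higher genes numbered 1 without WT replicate 1, and 2 were lower without KO replicate 1. Dysf missed the test without WT replicate 1 (0.0562), and Ptgis without WT replicates 1, 2 or 3 (0.0893, 0.0605 and 0.0907) or KO replicate 2 (0.0702). The 10 endothelial markers summed to 5.88 to 7.87 CPM in WT and 4.24 to 7.14 CPM in KO. Cldn5 had 0 counts in all 6 libraries, and Vwf was the 1 endothelial gene called, lower in KO (-1.56 log2, SE 0.42, adjusted p = 0.0286).

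Of 15 signalling receptors reported to bind caveolin 14 were tested, with 5 called higher, 0 lower and 9 neither. The median was 0.38 log2, and 35.7% were called, against 28.3% of all tested genes (13.8% higher). Itga5, the alpha chain of the fibronectin receptor, rose by 1.52 log2 (SE 0.09, adjusted p = 0.000209), from 99.1, 94.1 and 102 CPM to 284, 252 and 308. Its partner Itgb1 rose by 1.01 (SE 0.18, adjusted p = 0.00537) and the TGF-beta receptor Tgfbr1 by 1.19 (SE 0.20, adjusted p = 0.00254). The higher genes numbered 3 without WT replicate 1 or WT replicate 2.

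The flotillins, which form other membrane domains, and the clathrin coat, the main route of endocytosis, served for comparison. Among 8 flotillin and stomatin family genes 1 rose and 7 were not called, with a median of -0.09 log2: Flot1 (0.84 log2, SE 0.25, adjusted p = 0.0213), which missed the test without WT replicates 1, 2 or 3 (0.0727, 0.0931 and 0.0615) or KO replicate 3 (0.0508). The higher genes numbered 2 without KO replicate 1. Of 15 clathrin and AP2 coat genes 1 rose, 1 fell and 13 were not called, with a median of 0.26 log2. Epn2, an epsin, rose by 0.62 (SE 0.06, adjusted p = 0.00404), and Ap2b1, an AP2 subunit, fell by 0.49 (SE 0.09, adjusted p = 0.018), a call lost without WT replicate 1 (0.0608) or WT replicate 2 (0.0855). Without KO replicate 1 there were 3 higher and 3 lower coat genes, without KO replicate 3 2 higher, and without WT replicate 1 or 2 no lower one. Called genes made up 13.3% of the clathrin list and 12.5% of the flotillin list, against 50% of the tested caveola members and 28.3% of all tested genes, and these shares were not compared by a test.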

How the data were processed

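RNA of 3 WT and 3 KO libraries was sequenced. Per the labels' protocols, extraction combined TriZol LS with an RNeasy kit, and a TruSeq RNA kit gave the libraries. The authors deposited raw read counts per Ensembl gene, unscaled. Build GRCm38.p4, HTSeq, DESeq2 and TopHat2 2.1.0 appear in the submitters' processing notes. The annotation release, strand setting and read filters: not given in the sources used here. Of 46603 identifiers 46091 matched GENCODE M21 (GRCm38), which gave symbols, positions and exon lengths, and promoters came from RefSeq (GRCm38.p6).

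Genes passing filterByExpr were scaled with TMM and compared, KO against WT, by the quasi-likelihood F test of edgeR 4.0.16 in R 4.3.3, with group as the only term and Benjamini-Hochberg adjustment over 15009 genes. SEs are of the difference in mean log2 CPM. Ratios were compared by exact permutation over the 6 libraries. Steps were tested on simulated data. The alternatives tried were scaling by RLE, by the upper quartile or by totals, limma-voom (limma 3.58.1), DESeq2 1.42.0, other filters, the 10 most abundant genes left out, a replicate block and each library left out. Members, lists and tests were chosen with earlier results of these data known. The text names all members, Actb, the 5 genes most like Cav1 with a mean count of at least 200, and from each list the 3 called genes of smallest p and, where there was one, 1 called the opposite way, with marker and list genes at or near 0 where a sentence needs them, and says where a gene falls outside this rule.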

Additional observations from a re-analysis of the deposited data

How the results depend on the processing

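Cav1, Cav2 and Cavin2 kept their direction and their call under every alternative run, and without each library in turn their log2 fold changes ran from 1.49 to 1.98, from 1.47 to 1.74 and from 2.23 to 2.56. Without each library in turn the values ran from 1.03 to 1.60 for Cavin3, from -0.28 to 0.15 for Cavin1, from -0.07 to 0.75 for Ehd2, from 0.20 to 0.25 for Pacsin2 and from -0.09 to 0.12 for Pacsin3. Cavin3 missed the test with library totals (1.08 log2), limma-voom (1.17) and the replicate block (1.15, adjusted p = 0.0957). Ehd2 changed sign with limma-voom (-0.09) and the replicate block (-0.05), and Pacsin3 with upper-quartile scaling (-0.02) and library totals (-0.17). Pacsin2 was called by DESeq2 (0.24) and was at 0.03 log2 with library totals. The Cav1 to Cav2 difference ran from -0.17 to 0.47 without each library in turn, and length cancels from every ratio difference. Members called higher ran from 3 to 5 and called lower 0 to 0. With library totals 1351 genes were higher and 3347 lower; without each library in turn 1003 to 3075 were higher and 1295 to 3462 lower.

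Counts of the other lists moved more. With library totals the caveola-associated list had 0 higher and 7 lower, and the kinase and actin list 0 and 6. In the same setting the adipocyte list had 2 lower, the muscle and endothelium list 2, the receptors 1 and the clathrin coat 5. With upper-quartile scaling there were 3 higher caveola-associated genes, 0 higher genes of the kinase and actin list and 2 lower coat genes. With no filter these were 3 higher caveola-associated genes, 1 higher gene of the kinase and actin list and 2 lower muscle and endothelium genes. DESeq2 gave 5 lower caveola-associated genes, 1 lower muscle and endothelium gene (also limma-voom) and 3 higher and 2 lower coat genes. With the replicate block there were 1 higher caveola-associated gene, 0 higher genes of the kinase and actin list and 0 lower coat genes. Without each library in turn the ranges, higher then lower, were 0 to 5 and 3 to 5 for caveola-associated genes. For the kinase and actin list they were 0 to 4 and 2 to 4. For the adipocyte list they were 1 to 6 and 1 to 2, and for muscle and endothelium 1 to 3 and 0 to 2. The receptors had 3 to 7 higher, the flotillins 0 to 2 higher, and the coat 1 to 3 higher and 0 to 3 lower. The cause of these moves was not tested.

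The replicate number was not taken as a pairing: deviations of equally numbered WT and KO libraries correlated, across genes, at -0.101, 0.046 and -0.148, and the block lowered the called genes from 4255 to 3045. No culture, clone or batch labels were used, and with 3 libraries a group the exact permutation tests of ratios cannot go below p = 0.10.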
